A study of Mus musculus with 12 samples.

Results

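The mucolipins are a family of 3 genes in the mouse, Mcoln1, Mcoln2 and Mcoln3, and were taken by name from the 19935 genes measured on arrays of the anterior prostate. All 3 were measured, each by 1 transcript cluster (the array's probe set for a gene), namely 10569771 for Mcoln1, 10496771 for Mcoln2 and 10496756 for Mcoln3. They were chosen by their measured genotype difference in these same arrays, large for Mcoln2 and Mcoln3, which lie side by side, and small for Mcoln1. Their levels and genotype differences below are therefore a description with no test.

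The arrays compared males of the APT121 line with wild type males at 12 weeks of age. APT121 mice carry a transgene in which the promoter of probasin, a secretory gene of prostate epithelium, drives T121, a truncated SV40 T antigen that binds and inactivates pRb and its relatives, and their prostates carried prostatic intraepithelial neoplasia (PIN) per the labels. The wild type mice had normal prostates per the labels and no transgene, and both groups had a background of C57BL/6J mixed with DBA/2, at the F3 generation, and ate the AIN93G semi-purified diet from 3 weeks of age. Each array held RNA of 2 pooled mice, and 8 APT121 mice filled 4 arrays while 16 wild type mice filled 8, called pools here and named by replicate number.

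Mucolipins, also called TRPML channels, are cation channels of the TRP superfamily that sit in the membranes of late endosomes and lysosomes and release calcium and other cations from them. They are opened by the endolysosomal lipid PI(3,5)P2, which the kinase PIKfyve makes, and the calcium they release acts in membrane fusion, lysosomal exocytosis and, through calcineurin, in the activation of the transcription factor TFEB. TRPML1, encoded by Mcoln1, is made in nearly all tissues and its loss in humans causes mucolipidosis type IV. TRPML2 (Mcoln2) is known mainly from lymphoid and myeloid cells, and TRPML3 (Mcoln3) from inner ear hair cells and melanocytes, where a gain-of-function allele causes the varitint-waddler mouse.

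The promoters of the 3 genes are shown because a neighbouring pair and a distant relative can be compared there. Each sequence, from RefSeq on build GRCm38.p6, runs from 250 bases before to 50 bases after an annotated gene start, 5′ to 3′, on the plus strand. The windows lie at chr8:3500269-3500568 for Mcoln1, chr3:146149924-146150223 for Mcoln2 and chr3:146121541-146121840 for Mcoln3. Capitals mark matches, on either strand, to the E-box CACGTG, the core of the element bound by TFEB and its relatives, or to the E2F forms TTTCCCGC, TTTGGCGC, TTTCGCGC and TTTGCCGC.
Mcoln1: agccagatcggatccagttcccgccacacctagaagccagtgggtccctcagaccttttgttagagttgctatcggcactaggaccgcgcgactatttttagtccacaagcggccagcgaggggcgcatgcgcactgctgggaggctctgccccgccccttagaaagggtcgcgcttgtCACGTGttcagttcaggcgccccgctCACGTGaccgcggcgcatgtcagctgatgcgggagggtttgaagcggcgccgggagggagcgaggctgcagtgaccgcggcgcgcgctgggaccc
Mcoln2: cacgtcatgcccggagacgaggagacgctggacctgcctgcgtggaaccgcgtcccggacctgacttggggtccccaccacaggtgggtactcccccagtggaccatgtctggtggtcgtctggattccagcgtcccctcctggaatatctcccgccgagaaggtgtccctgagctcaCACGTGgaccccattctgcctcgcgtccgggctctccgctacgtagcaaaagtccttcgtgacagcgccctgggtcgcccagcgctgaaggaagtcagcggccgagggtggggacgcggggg
Mcoln3: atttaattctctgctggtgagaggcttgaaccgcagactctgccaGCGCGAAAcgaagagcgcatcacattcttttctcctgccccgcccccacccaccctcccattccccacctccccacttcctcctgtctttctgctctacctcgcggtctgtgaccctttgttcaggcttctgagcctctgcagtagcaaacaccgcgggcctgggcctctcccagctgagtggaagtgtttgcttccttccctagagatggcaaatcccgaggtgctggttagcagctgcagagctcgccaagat
The Mcoln1 promoter held 2 E-boxes, the Mcoln2 promoter held 1, and that of Mcoln3 held none of these letters. Among 32851 RefSeq promoters of the same length, 7.15% held at least 1 E-box and 0.594% at least 2. The Mcoln3 window held 1 E2F form, GCGCGAAA, which is TTTCGCGC read on the other strand, and 2.26% of all promoters held any of the 4 forms. No E-box match overlapped an E2F match. The windows of Mcoln1 and Mcoln2 were 65.0% and 66.3% G and C with 30 and 26 CG dinucleotides, that of Mcoln3 was 57.7% with 12, and the medians of all promoters were 52.7% and 7. A match describes letters only and was not tested as a binding site.

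Of the 3 genes, Mcoln3 had the largest difference between APT121 and wild type prostate. Its RMA intensity, on a linear scale, was 14.8, 12.8, 19.2 and 9.60 in APT121 pools 1 to 4, against 269 to 586 in the 8 wild type pools (median 313). The groups were far apart, with the lowest wild type value 14.0-fold above the highest APT121 value. On the log2 scale Mcoln3 averaged 3.77 ± 0.42 in APT121 (SD, n = 4) and 8.52 ± 0.44 in wild type (SD, n = 8), a difference of -4.75 ± 0.22 (APT121 minus wild type ± SE), or 26.9-fold lower. This was the ninth lowest difference of all genes (rank 9 of 19935).

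Mcoln2, the next gene along chromosome 3, had a difference of nearly that size. It had intensities of 45.8, 52.1, 49.9 and 66.1 in APT121 pools 1 to 4, against 684 to 878 in wild type (median 794). The lowest wild type pool lay 10.3-fold above the highest APT121 pool. Log2 means were 5.73 ± 0.23 in APT121 and 9.62 ± 0.11 in wild type, a difference of -3.89 ± 0.09, or 14.9-fold lower, rank 15 of all genes. At least 8-fold lower values, as both genes had, were seen for 29 genes (0.145%). APT121 values that all lay below the wild type values, as for Mcoln2 and Mcoln3, were seen for 3361 genes (16.9%), and groups without overlap in either direction for 34.6%. Nothing is read from these shares, since this contrast chose the genes. In bulk tissue, fewer cells that make a transcript and less of it per cell cannot be told apart.

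Mcoln1 differed little. It had intensities of 202, 209, 214 and 233 in APT121 pools 1 to 4, against 220 to 250 in wild type (median 240). The groups overlapped through APT121 pool 4, which lay above 3 of the wild type pools. Log2 means were 7.74 ± 0.09 in APT121 and 7.88 ± 0.06 in wild type, a difference of -0.14 ± 0.06, close to the median difference of all genes (-0.09). Quantile normalisation over the genes tested moved the Mcoln1 difference to -0.29, where the median of all genes was -0.06.

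**Figure D1:**
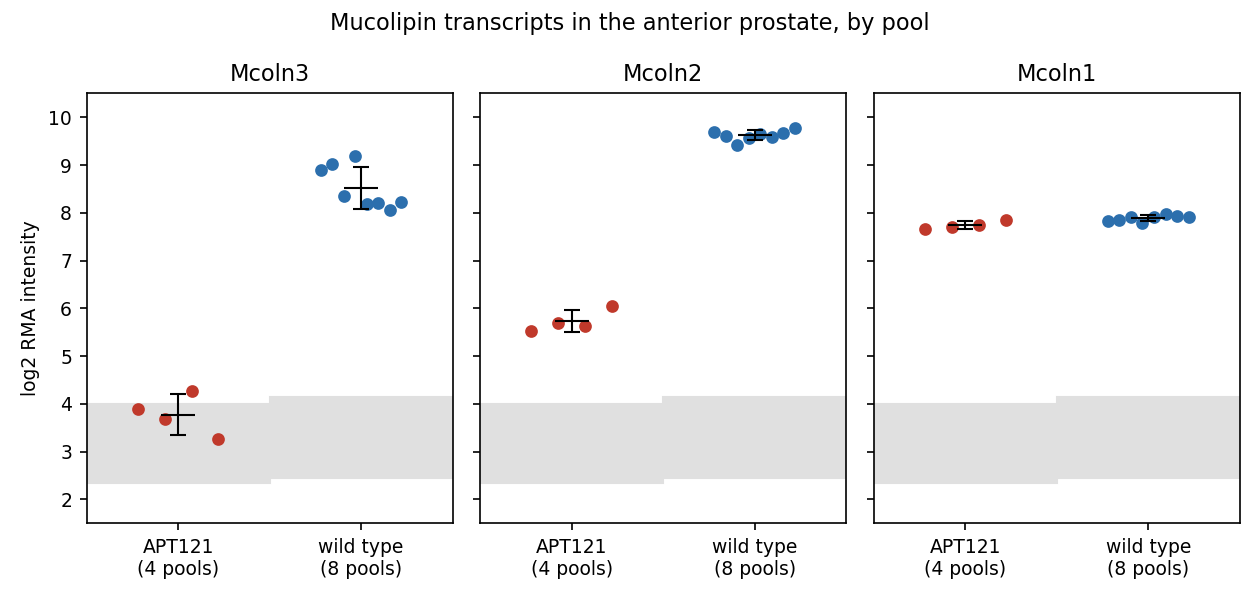
Log2 RMA intensity (vertical axis) of Mcoln3, Mcoln2 and Mcoln1 in each pool of 2 mice, APT121 in red and wild type in blue. Crosses with bars give the mean and SD, and grey bands the 5th to 95th percentile of the means of 1027 olfactory receptor genes in that genotype. Mcoln3 in APT121 lay at the upper part of the band, Mcoln2 lay above it in both genotypes, and Mcoln1 was nearly level.

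How far the low values stand above background bears on these folds. Olfactory receptor genes, of which 1027 were measured and which are not expected in prostate, had a median log2 mean of 2.79 and a 95th percentile of 3.99 in APT121, and 2.91 and 4.14 in wild type. The Mcoln3 mean in APT121 (3.77) lay above 92.6% of them and below their 95th percentile, so its 26.9-fold, its rank and its place ahead of Mcoln2 are of measured intensities and not of a level shown to exceed background. The Mcoln2 mean in APT121 (5.73) lay above 99.7% of them, at the middle of all genes (above 53.0%). In wild type, Mcoln2, Mcoln3 and Mcoln1 lay above 96.5%, 89.6% and 83.0% of all genes. Probe sets differ in brightness, so these places do not rank the abundance of the 3 transcripts.

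No gene measured around the Mcoln3 and Mcoln2 pair had a difference near theirs, although most had too low a level for such a fall to be seen. The pair was also chosen for this difference, and 0.145% of all genes were at least 8-fold lower, so few genes anywhere come near it. Of the 8 neighbours, 3 lay within the olfactory receptor band in both genotypes. In wild type, Ctbs (5.78), 2410004B18Rik (5.96) and Bcl10 (6.36) lay less than 8-fold above its 95th percentile (4.14). Only Syde2 (7.80) and Ssx2ip (8.12) lay further above it. In the gene order of GRCm38.p6, the 4 protein-coding genes before the pair are Bcl10, 2410004B18Rik, Syde2 and Wdr63, and the 4 after it are Lpar3, Ssx2ip, Ctbs and Spata1. Their differences ran from -0.33 to 0.31. Among all genes 52.8% passed an adjusted p under 0.05 (limma), 22.8% as higher and 30.0% as lower. Among these 8 neighbours 1 was higher and 2 were lower. Syde2 fell by 0.33 ± 0.08 (adjusted p = 0.00237). The lysophosphatidic acid receptor gene Lpar3, next to Mcoln2, had log2 means of 3.86 in APT121 and 4.06 in wild type, both within the olfactory receptor band, and differed by -0.20 ± 0.08 (adjusted p = 0.0432). The uncharacterised 2410004B18Rik rose by 0.31 ± 0.09 (adjusted p = 0.0098). Both of these calls were lost after quantile normalisation (-0.10, adjusted p = 0.301, for Lpar3 and 0.17, adjusted p = 0.128, for 2410004B18Rik), and that of Lpar3 also without any 1 of APT121 pools 1, 2 and 4 or wild type pools 2, 3, 4, 5 and 8 (adjusted p from 0.0526 to 0.153). Wdr63, next to Mcoln3, differed by -0.15 ± 0.06 (adjusted p = 0.0671), and its means of 3.38 in APT121 and 3.53 in wild type were also within the band, where a fall could not be seen. Bcl10 (0.12), Ssx2ip (0.09), Ctbs (0.12) and Spata1 (0.00) did not pass the test, with Spata1 at 3.70 in both genotypes, inside the band.

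Around Mcoln1, on chromosome 8, 2 of the 8 nearest genes were higher and 2 lower. Pex11g, a peroxisomal membrane protein gene, was the largest, with 64.0 to 73.1 in APT121 (median 70.0) against 157 to 181 in wild type (median 162), and fell by 1.27 ± 0.07 on the log2 scale (adjusted p = 1.57e-10). Camsap3, which encodes a protein of microtubule minus ends, fell by 0.60 ± 0.07 (adjusted p = 1.55e-06). Xab2, a splicing and DNA repair factor, rose by 0.31 ± 0.07 (adjusted p = 9.46e-04), and Arhgef18 rose by 0.30 ± 0.09 (adjusted p = 0.0139). Arhgef18 lost its call after quantile normalisation (0.15, adjusted p = 0.181) and without APT121 pool 1 (adjusted p = 0.0515) or pool 4 (adjusted p = 0.0694). The direct neighbours Zfp358 (0.21 ± 0.09, adjusted p = 0.0587) and Pnpla6 (-0.10 ± 0.06, adjusted p = 0.196) did not pass, nor did Tex45 (-0.24) and Rps23rg1 (0.12). Pnpla6 passed after quantile normalisation (-0.27, adjusted p = 8.56e-04). Tex45, with an adjusted p of 0.0502, passed in several settings, such as median centring (-0.29, adjusted p = 0.0217), and Zfp358 did so with array weights (0.23, adjusted p = 0.0259) and in others. The Tex45 log2 means of 2.82 in APT121 and 3.05 in wild type were both within the olfactory receptor band.

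**Figure D2:**
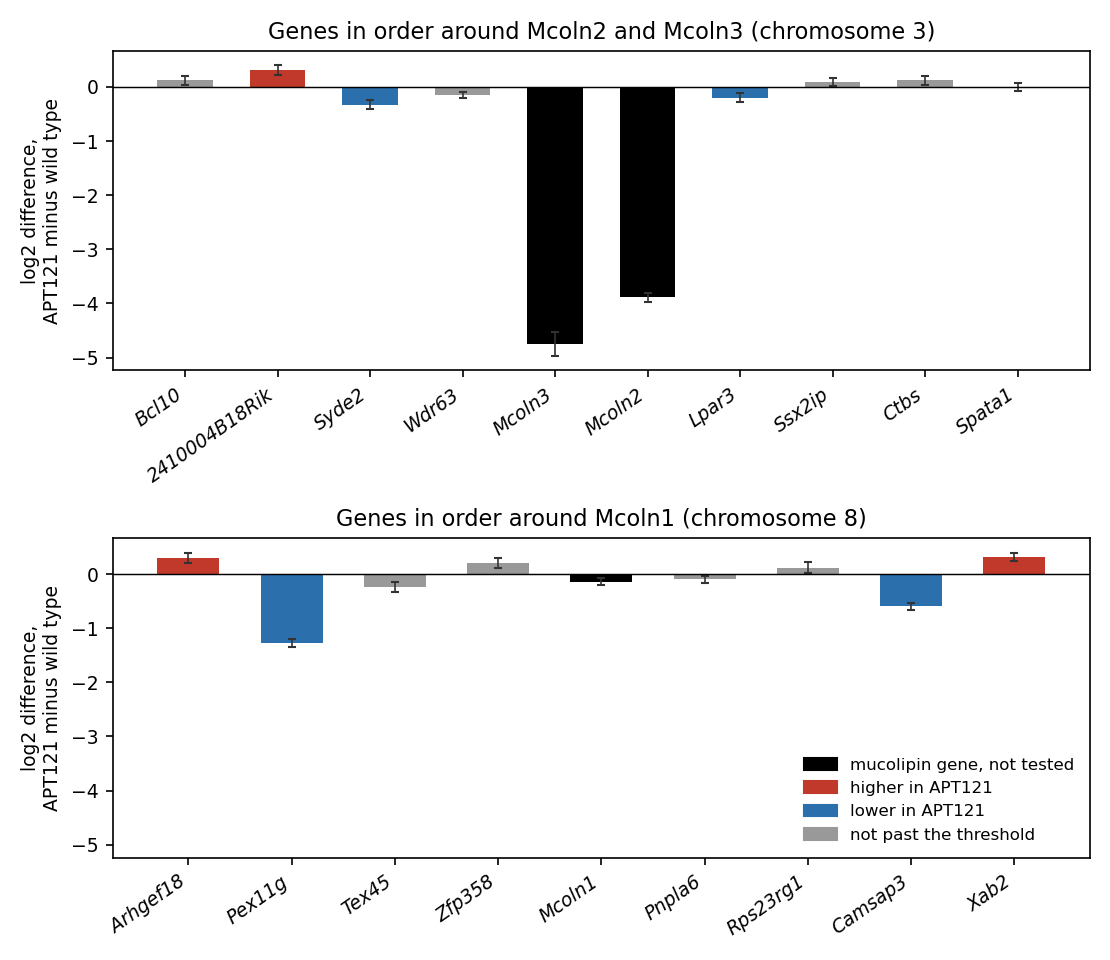
Log2 difference, APT121 minus wild type (vertical axis, bars with SE), for genes in their order along the chromosome around Mcoln3 and Mcoln2 (top) and Mcoln1 (bottom), spaced evenly. Black bars are mucolipin genes, red and blue bars are neighbours higher or lower in APT121 by limma, and grey bars are neighbours that did not pass. Mcoln3 (-4.75) and Mcoln2 (-3.89) lie far below their neighbours, between -0.33 and 0.31, most of which were too low for such falls to be seen. The pair was chosen for this difference. Mcoln1 (-0.14) lies among neighbours between -1.27 and 0.31.

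Among wild type pools, Mcoln3 varied most and Mcoln1 least. Mcoln3 had 475, 523, 326, 586, 290, 297, 269 and 300 in wild type pools 1 to 8, a 2.18-fold span, and its SD exceeded that of 99.0% of all genes. Pools 1, 2 and 4 were high and the other pools lay between 269 and 326. The span was 1.28-fold for Mcoln2 and 1.14-fold for Mcoln1, whose SD exceeded that of only 3.39% of genes. Mcoln3 averaged 8.87 ± 0.37 over wild type pools 1 to 4 and 8.17 ± 0.07 over pools 5 to 8 (SD, n = 4 each), so its difference was -5.09 against the first set and -4.40 against the second. For Mcoln2 these differences were -3.84 and -3.95. In APT121, pool 4 had the highest Mcoln1 (233) and Mcoln2 (66.1) and the lowest Mcoln3 (9.60).

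The order of the pools was opposite for Mcoln1 and Mcoln3. Over the 8 wild type pools, variation that did not choose the genes, Pearson's r was -0.93 (two-sided exact permutation p = 0.0033, adjusted p = 0.0099 over 3 pairs of genes) and Spearman's rank correlation was -0.86 (exact p = 0.0107, adjusted p = 0.0321). Without the 2 pools farthest from the median of Mcoln1, r was -0.83 and the relation no longer passed with the fewer pools (exact p = 0.0528, adjusted p = 0.158, n = 6). The range of Mcoln1 behind it is narrow (220 to 250), and r at or below -0.93 with Mcoln3 was found for 10 of 19934 genes (0.0502%). Both genes differed between the sets of pools, with Mcoln1 at 7.84 ± 0.05 over pools 1 to 4 and 7.93 ± 0.03 over pools 5 to 8 (SD, n = 4 each), opposite to Mcoln3. Around the means of these sets, a setting added after the data were seen, r over the 8 pools was -0.80 and did not pass (exact permutation within sets, p = 0.0972, adjusted p = 0.203). Neighbouring Mcoln2 and Mcoln3 did not vary together among wild type pools (r = -0.16, exact p = 0.699, adjusted p = 0.947; Spearman's rank correlation -0.33, exact p = 0.428, adjusted p = 0.619; r = -0.35 without the 2 farthest pools and 0.54 around the set means, exact p = 0.34), nor did Mcoln1 and Mcoln2 (r = 0.03, exact p = 0.947, adjusted p = 0.947; Spearman's rank correlation 0.21, exact p = 0.619, adjusted p = 0.619; r = 0.02 without the 2 farthest pools and -0.67 around the set means, exact p = 0.135). With 8 pools, only strong relations pass.

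**Figure D3:**
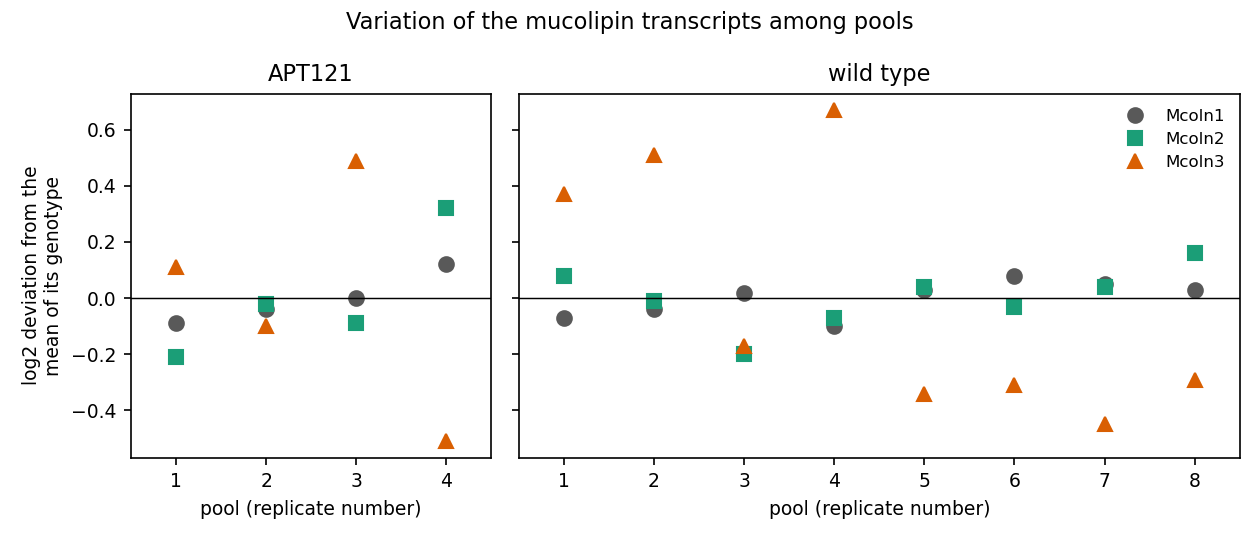
Log2 deviation of Mcoln1 (grey circles), Mcoln2 (green squares) and Mcoln3 (orange triangles) from the mean of their genotype (vertical axis) in each pool (horizontal axis), APT121 on the left and wild type on the right. Mcoln3 in wild type lay above its mean in pools 1, 2 and 4 and below it in the other pools, and Mcoln1 lay on the opposite side in each of the 8 wild type pools.

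Transcripts of other tissues and cell types moved among the same pools. Summed intensities of 9 adipose markers were 357, 782, 1169, 714, 1224, 906, 1558 and 1018 in wild type pools 1 to 8, so pools 1, 2 and 4, with the highest Mcoln3, had the lowest adipose sums. In APT121 pools 1 to 4 the adipose sums were 371, 560, 601 and 333, and there pool 3 had both the highest sum and the highest Mcoln3 and pool 4 the lowest of both. Of the 9 adipose markers 8 were lower in APT121 (88.9%, against 30.0% of all genes, median -0.75). Summed intensities of 9 seminal vesicle markers were 1569, 17977, 11222 and 14168 in APT121 pools 1 to 4, against 107 to 200 in wild type pools other than pool 6, which had 15922. Of these 9 markers 3 were higher in APT121 (33.3%, against 22.8% of all genes), namely Svs2 (6.17), Svs5 (5.10) and Pate4 (5.43). The other 6 did not pass, and the median difference of the list was -0.38, so the sums do not stand for all its markers. Wild type pool 6 had 770 for Mcoln2 and 297 for Mcoln3. APT121 pool 1 had 45.8 and 14.8, and its seminal vesicle sum, the lowest of its group, was still above 107 to 200. Leaving out wild type pools 5, 6 and 7 gave differences of -4.97 for Mcoln3, -3.89 for Mcoln2 and -0.11 for Mcoln1. The part of adipose tissue or seminal vesicle in the mucolipin differences was not tested.

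Among markers of prostate cell types, Pbsn, the probasin gene, was the farthest below wild type. The counts below stand beside 22.8% of all genes higher and 30.0% lower. Of 10 luminal epithelial markers 7 rose and 2, Hoxb13 (-0.57) and Pbsn (-3.27), fell. Their median difference was 0.60, with summed intensities of 20258 to 20976 in APT121 against 18163 to 20273 in wild type. Basal markers fell for 6 of 8 (median -0.49, sums 1019 to 1259 in APT121 and 1251 to 1551 in wild type). Smooth muscle markers fell for 10 of 10 (median -0.66, sums 6863 to 9190 in APT121 and 11378 to 13185 in wild type). Fibroblast markers fell for 8 of 8 (median -0.55, sums 1794 to 3090 in APT121 and 3598 to 4265 in wild type). Endothelial markers fell for 7 of 8 (median -0.51, sums 394 to 417 in APT121 and 554 to 664 in wild type). Myeloid markers, of cells known to use Mcoln2, rose for 11 of 12 (median 0.73, sums 797 to 1713 in APT121 and 649 to 820 in wild type). Which cells made Mcoln2 in these prostates was not measured. Of 7 B lymphocyte markers 3 fell (median -0.18), and their sums were 77.4 to 85.9 in APT121 and 82.3 to 94.5 in wild type. The wild type means of 5 of these 7 were below the olfactory receptor 95th percentile, and the highest was 4.30. Of 7 T lymphocyte markers 2 rose (28.6%, sums 133 to 174 in APT121 and 109 to 127 in wild type), by 1.59 for Cd3g and 0.24 for Cd3e. The wild type means of 5 of these 7 were also below the olfactory receptor 95th percentile. Of 5 markers of peripheral nerve 2 fell (40.0%, sums 154 to 168 in APT121 and 168 to 244 in wild type). The part of these cell types in the mucolipin differences was not tested.

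The genes whose levels were most like those of each mucolipin were found by Pearson's r over the 12 pools, a description that the genotype difference dominates. For Mcoln3 these were P3h3, a collagen prolyl hydroxylase gene (r = 0.995), Atp6v1c2, a subunit of the lysosomal proton pump (0.995), and Chn2, a Rac GTPase-activating protein gene (0.993). For Mcoln2 they were Tcta (0.998), the xylosyltransferase gene Gxylt2 (0.997) and the protein phosphatase gene Ppm1e (0.997). Mcoln2 came 120th in likeness to Mcoln3 (r = 0.98 over 12 pools, place 120), and Mcoln3 was at place 247 for Mcoln2, so many genes were closer to each than its neighbour. Gxylt2 had 15.8 to 20.2 in APT121 against 368 to 486 in wild type, and a difference of -4.65, between those of Mcoln2 and Mcoln3. Mcoln1 was most like Defb36 (0.940), Slc16a14 (0.929) and Pamr1 (0.926), genes at low log2 means, from 3.07 to 4.68 over both genotypes. When each gene was taken as its deviation from the genotype means, Atp6v1c2 was again the gene most like Mcoln3 (r = 0.907 over 12 pools).

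Atp6v1c2 encodes the C2 subunit of the V-ATPase, the pump that acidifies endosomes and lysosomes. It had 503 to 747 in APT121 (median 612), against 1550 to 2050 in wild type (median 1795). In wild type its 4 highest pools, 1 to 4, were also the 4 highest for Mcoln3. The log2 difference was -1.55 ± 0.10, or 2.93-fold lower, smaller than that of Mcoln3. It was picked as the closest of all genes, partly on APT121 values of Mcoln3 within the olfactory receptor band.

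Genes that work with the mucolipins were compared across 8 lists with 199 measured genes in all. At an adjusted p under 0.05, 51 were higher (25.6%) and 73 lower (36.7%) in APT121, against 22.8% and 30.0% of all genes, with a median difference of -0.11 against -0.09. At least 4-fold lower values were seen for 3 of the 199, Tfec, Rragd and Slc30a2, and the share of all genes at that size was not counted. At least 8-fold lower values, as in Mcoln2 and Mcoln3, were seen for 0 of the 199 and for 0.145% of all genes. With so small a share, nothing is read from the absence of such falls in the lists. Of the 199, 127 had a wild type mean at least 8-fold above the olfactory receptor 95th percentile. The counts of each list below stand beside the same shares of all genes, 22.8% higher and 30.0% lower.

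**Figure D4:**
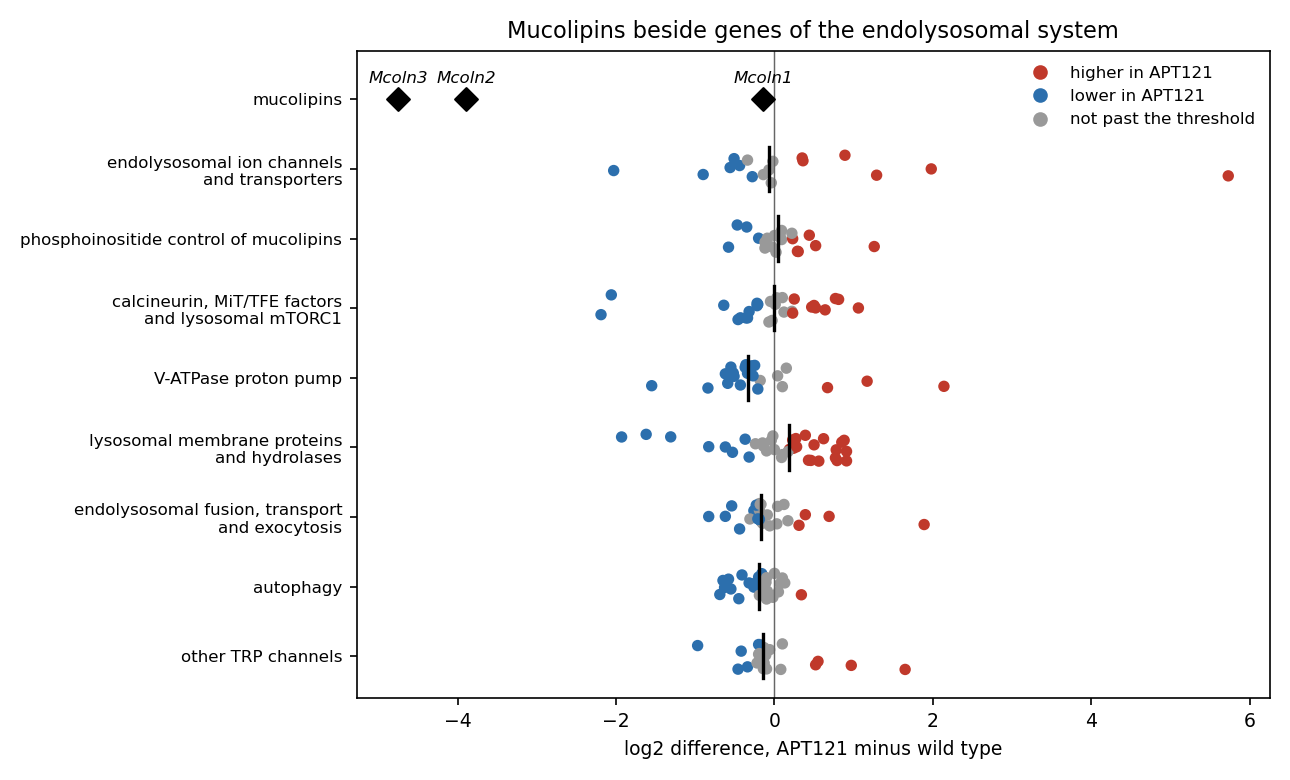
Log2 difference, APT121 minus wild type (horizontal axis), of the 3 mucolipins (black diamonds, not tested) above the measured genes of 8 lists, 1 point a gene, in red or blue where higher or lower by limma and in grey where not past the threshold. Black lines give list medians, from -0.33 for the V-ATPase to 0.18 for lysosomal membrane proteins and hydrolases. Mcoln3 and Mcoln2 lie to the left of every gene of the lists. They were chosen for this difference and rank 9 and 15 of all genes, so nothing is read from that place.

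The enzymes that set the activating lipid did not move as one. Of 20 genes of phosphoinositide control, 6 rose and 4 fell (median 0.05), which turned to 3 higher and 7 lower after quantile normalisation. Pikfyve, the kinase gene itself, had 132 to 168 in APT121 (median 148) against 120 to 154 in wild type (median 141), groups that overlapped, and its difference of 0.09 ± 0.08 did not pass (adjusted p = 0.349) and was -0.09 after quantile normalisation. Pik3c3, the kinase that makes its substrate PI3P, rose 2.39-fold (1.26 ± 0.11, adjusted p = 1.19e-07). The phosphatase genes Mtmr14 and Inpp5b changed in opposite directions, by 0.52 ± 0.07 (adjusted p = 9.85e-06) and -0.58 ± 0.07 (adjusted p = 5.24e-06).

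Of 17 other ion channels and transporters of the endolysosome, 6 were higher and 6 lower (median -0.07), and 5 were higher and 9 lower after quantile normalisation. The two-pore channels share the activating lipid with the mucolipins. Tpcn1 fell by 0.44 ± 0.10 (adjusted p = 0.00205), with 125 to 146 in APT121 against 139 to 217 in wild type. Tpcn2 rose by 0.35 ± 0.09 (adjusted p = 0.00362), with 90.0 to 106 in APT121 against 64.1 to 90.7 in wild type, a call lost after quantile normalisation (0.19, adjusted p = 0.101). Clcn7, the lysosomal chloride-proton exchanger, differed by -0.07 ± 0.07 (adjusted p = 0.413) and passed after quantile normalisation (-0.24, adjusted p = 0.00593). Its partner Ostm1 fell by 0.90 ± 0.10 (adjusted p = 1.51e-06). Lrrc26, which encodes a regulator of BK potassium channels, rose by 5.73 ± 0.21 (adjusted p = 3.05e-12). The vesicular zinc transporter genes Slc30a2 and Slc30a4 moved apart, by -2.03 ± 0.11 (adjusted p = 2.69e-10) and 1.98 ± 0.09 (adjusted p = 4.13e-11).

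V-ATPase subunit genes were mostly lower, 16 of 23 with 3 higher, and their median of -0.33 was the lowest of the lists. The falls other than that of Atp6v1c2 ran from -0.21 for Atp6v1b2 to -0.84 for Atp6v1g2, and Atp6v1a, a catalytic subunit, was at -0.43 ± 0.07. The members that rose were Atp6v0a4, an alternative a subunit of the membrane sector, by 2.14 ± 0.15 (adjusted p = 6.92e-09), the accessory gene Atp6ap2 by 1.17 ± 0.08 (adjusted p = 5.81e-09) and Tcirg1, another a subunit, by 0.67. Atp6v0a4 had 48.2 to 103 in APT121 against 14.8 to 18.3 in wild type, where its log2 mean of 4.05 lay inside the olfactory receptor band.

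Downstream of the channels, the 28 genes of calcineurin, the MiT/TFE factors and lysosomal mTORC1 had 9 higher and 11 lower members (median -0.01). Tfeb differed by -0.07 ± 0.08 (adjusted p = 0.494), with 36.8 to 44.2 in APT121 against 37.6 to 46.7 in wild type. Tfe3 rose by 0.25 ± 0.07 (adjusted p = 0.0103), a call lost after quantile normalisation (0.08, adjusted p = 0.384) and against wild type pools 5 to 8 alone (adjusted p = 0.0503). Their relatives Tfec and Mitf fell by 2.19 ± 0.24 (adjusted p = 1.26e-06, with the APT121 mean of 3.40 inside the olfactory receptor band) and 0.43 ± 0.11 (adjusted p = 0.00373). Rragd, a Rag GTPase that recruits mTORC1 to the lysosome and a known target of these factors, had 25.9, 26.3, 28.6 and 25.5 in APT121 pools 1 to 4 against 90.5 to 138 in wild type, and fell by 2.06 ± 0.10 (adjusted p = 6.63e-11). Fnip2, a folliculin partner, rose by 1.06 ± 0.09 (adjusted p = 7.52e-08). The 5 Ragulator genes, Lamtor1 to Lamtor5, all fell, by 0.22, 0.64, 0.21, 0.22 and 0.36 on the log2 scale.

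Lysosomal membrane proteins and hydrolases were more often higher, 18 of 36, with 8 lower (median 0.18). Lamp1, a major glycoprotein of the lysosomal membrane that marks the organelle, had 2006 to 2476 in APT121 (median 2291) against 1154 to 1444 in wild type (median 1324), and rose by 0.78 ± 0.08 (adjusted p = 8.13e-07), opposite to Mcoln2 and Mcoln3. Psap, the saposin precursor gene, and Gm2a, the GM2 activator, both rose by 0.91. The sialidase gene Neu1 fell by 1.93 ± 0.10 (adjusted p = 9.88e-11), the alpha-galactosidase gene Gla by 1.62 ± 0.10 (adjusted p = 1.41e-09) and the tetraspanin gene Cd63 by 1.31 ± 0.10 (adjusted p = 1.25e-08).

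Of 27 genes of endolysosomal fusion, transport and exocytosis, 4 rose and 10 fell (median -0.17). Rab27a, a GTPase of secretory lysosomes, rose by 1.89 ± 0.16 (adjusted p = 8.27e-08) and the dynein gene Dync1h1 by 0.69 ± 0.07 (adjusted p = 4.98e-07), while the SNARE gene Vti1b fell by 0.83 ± 0.07 (adjusted p = 3.23e-08). The number that fell depended on single pools, at 6 without APT121 pool 2 or wild type pool 7, and on scaling, at 16 after median centring and 18 after quantile normalisation. Autophagy genes fell for 13 of 27, with 1 higher (median -0.19), and for 20 after quantile normalisation. Atg4a (-0.69 ± 0.09, adjusted p = 8.08e-06), Atg13 (-0.65 ± 0.09, adjusted p = 1.37e-05) and the LC3 gene Map1lc3a (-0.63 ± 0.07, adjusted p = 1.91e-06) had the largest changes.

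Of 22 other genes of the TRP superfamily measured, 4 rose and 5 fell (median -0.14). Their wild type means were below the olfactory receptor 95th percentile for 14 of the 22, and at least 8-fold above it only for Trpm7 (7.53), so falls of the size seen in Mcoln2 and Mcoln3 could not have been measured for nearly all of them. Trpm4, a calcium-activated cation channel, had 233 to 352 in APT121 against 78.9 to 99.9 in wild type and rose 3.14-fold (1.65 ± 0.09, adjusted p = 5.37e-10). Trpv3 rose by 0.97 ± 0.12 (adjusted p = 3.44e-06), with its wild type mean of 4.09 inside the olfactory receptor band. Trpc6, a channel of smooth muscle, fell by 0.97 ± 0.18 (adjusted p = 2.96e-04), with its APT121 mean of 3.88 inside that band. Whether its fall goes with that of the smooth muscle markers was not tested. The number of TRP genes that fell was 3 without APT121 pool 1, 2 without APT121 pool 2 and 3 without wild type pool 3, and it was 3 after quantile normalisation, 10 after median centring and 8 with array weights.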

How the data were processed

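Total RNA of the anterior prostate, pooled from 2 mice per array, was hybridised to Affymetrix Mouse Gene 1.0 ST arrays, per the labels. Intensities in the deposited table are linear, 1 for each cluster and array, and the authors made them with RMA, per the submitters' processing notes. No software version or genome build is named in the sources used here. Array medians were 32.1 to 33.7, and precision is limited by the 12 arrays. Nothing says more of the pools than that they are separate samples. The limma p-values judge the genotype difference against the spread between pools of 2 mice, moderated over all genes. The spread between single mice was not measured.

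Log2 was taken here. The platform annotation gave 1 symbol for 21780 of 28815 clusters, several for 1605 and none for 5430. Gene IDs of 21689 were found in RefSeq (GRCm38.p6), with 0 symbols updated. For 998 genes with several clusters the cluster with the highest mean was used, which left 19935 genes and no filter. All 3 mucolipin promoters were matched in the RefSeq table.

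Genes were tested with limma 3.58.1 in R 4.3.3 (lmFit, eBayes, genotype alone, 12 arrays, two-sided) with Benjamini-Hochberg adjustment over all genes, at 0.05. The design text names SAM, which was not run. The script was tested on simulated data. Members, lists and settings were chosen with earlier results of these data known. Named genes are the mucolipins, up to 3 called genes per list with the largest difference, a few genes always named, the 4 nearest protein-coding genes on each side and the 3 genes most like each mucolipin. Lamtor1 to Lamtor5, Ostm1, Mitf, Psap, Gm2a, Tcirg1, Atp6v1a, Atp6v1b2, Atp6v1g2, Hoxb13 and Trpm7 were named after their values were seen. So were Svs2, Svs5 and Pate4. Trpm2 is in 2 lists.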

Additional observations from a re-analysis of the deposited data

Results flagged for a closer look

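Among 132 groups of values examined (66 genes in 2 genotypes), 10 held a pool far from the others by Dixon's test. Chance alone flags about 1 in 20 groups, and none of the 10 was a mucolipin. Log2 intensities are given. In APT121, pool 4 was high for Map1lc3a (7.77, nearest other 7.54) and Tex45 (2.95, nearest 2.78) and low for Trpc6 (3.78, nearest 3.90). APT121 pool 3 was low for Tpcn2 (6.49, nearest 6.71), and pool 2 was high for Camsap3 (9.41, nearest 9.18). In wild type, pool 3 was low for Atg4a (7.64, nearest 7.96) and high for Rps23rg1 (5.83, nearest 5.40). Wild type pool 6 was low for Trpm4 (6.30, nearest 6.57) and Zfp358 (6.90, nearest 7.21), and pool 5 was low for Pikfyve (6.91, nearest 7.11).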

How the results depend on the processing

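The differences of Mcoln2 and Mcoln3 kept their direction under all settings run, from -4.00 to -3.82 and from -5.09 to -4.40, and Mcoln1 ran from -0.29 to -0.10. Leaving out 1 pool gave -4.00 to -3.82 for Mcoln2, -4.91 to -4.58 for Mcoln3 and -0.18 to -0.11 for Mcoln1. Quantile normalisation moved Mcoln1 to -0.29, phosphoinositide genes to 3 higher and 7 lower, fusion genes to 18 lower, TRP genes to 3 lower, and autophagy genes to 20 lower and 0 higher by limma (1 at an unadjusted p under 0.05). Median centring gave 16 fusion and 10 TRP genes lower, and array weights 8 TRP genes lower. Without the lower-expressed 50% of genes, 3326 of all genes fell, and among TRP genes 2 rose and 1 fell, with fewer genes tested. Leaving out 1 pool gave 6 to 11 fusion genes and 2 to 6 TRP genes lower. Against wild type pools 1 to 4 alone 6 fusion genes were lower. Same-numbered pools of the genotypes did not deviate together (r from -0.03 to 0.07 over genes, and 2 of 4 APT121 pools correlated best with their own number), so the numbers were not taken as pairs. With a replicate block 8814 genes were called in place of 10527, and 6 fusion genes were lower. The correlation of Mcoln1 and Mcoln3 over wild type pools was -0.83 without the 2 farthest pools (adjusted p = 0.158, fewer pools) and -0.80 around the set means (adjusted p = 0.203), where that of Mcoln1 and Mcoln2 turned to -0.67 and that of Mcoln2 and Mcoln3 to 0.54, neither of which passed. Of 1426 values of 63 named genes, 1339 kept direction and call, 34 lost a call, 31 gained one and 22, of 7 genes that did not pass, turned sign. These were, after quantile normalisation, Pikfyve (-0.09), Bcl10 (-0.03), Ssx2ip (-0.03), Kcns2 (0.03) and Aven (-0.02), with the replicate block or wild type pools 1 to 4 alone, Rps23rg1 (-0.00) and Kcns2 (0.03), against wild type pools 5 to 8, Ssx2ip (-0.03), and Spata1, at -0.05 with median centring, the replicate block or wild type pools 1 to 4, -0.02 with array weights, -0.03 without wild type pools 5, 6 and 7, and -0.04 to 0.06 when 1 pool was left out (-0.00 without wild type pools 2, 5 or 6, -0.01 without 7 or 8, -0.04 and -0.03 without APT121 pools 2 and 3). For the other changes the cause was not tested.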

Other observations

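Genes that deviated most like each mucolipin from their genotype means over the 12 pools, by Pearson's r as a description, were Atp6v1c2 (0.907), Pnpt1 (0.904) and Fmnl2 (0.897) for Mcoln3, Aven (0.906), Aox4 (0.900) and Rab33a (0.890) for Mcoln2, and Krt1 (0.909), Slc16a14 (0.902) and Kcns2 (0.888) for Mcoln1. All were picked as the closest of many genes. The means of Aox4, Rab33a, Slc16a14 and Kcns2 lay inside the olfactory receptor band in both genotypes. Pnpt1, which encodes a mitochondrial polynucleotide phosphorylase, was higher in APT121 than in wild type (log2 means 7.42 and 6.90), as was the formin gene Fmnl2 (7.05 and 6.72), although both followed Mcoln3 within the genotypes. Fmnl2 no longer passed after quantile normalisation (0.16, adjusted p = 0.0704). By the same measure the mucolipins had r = -0.80 for Mcoln1 and Mcoln3, 0.54 for Mcoln1 and Mcoln2 and -0.42 for Mcoln2 and Mcoln3.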
